A study of Rattus norvegicus and Mus musculus with 18 samples.

Results

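Hair follicle stem cells are usually recognised by a small set of transcripts, and 10 of these marker genes were followed here in healing mouse skin: Cd34, Lgr5, Lgr6, Sox9, Nfatc1, Tcf7l1, Tcf7l2, Lhx2, Lrig1 and Foxc1. They were chosen by name, as known markers of the follicle but with earlier results of these data known, and all 10 were found among the 49548 genes of the mouse expression table. Of these 10, 8 were expressed highly enough to be tested, which meant at least 1 TPM (a gene's length-corrected share of all transcripts in a library, on a fixed total) in at least 3 of the 6 mouse libraries. In all, 15982 genes passed that filter. Of the 8 tested markers, 7 were lower in wound epidermis than in wound dermis and 0 were higher. Among the 7, Lgr5 and Tcf7l1 were under 1 TPM in every epidermis library and passed the filter through dermis alone. For them a lower level in epidermis was built into being tested, as for any gene that reached 1 TPM in dermis alone. Over all tested genes, 39.3% were lower and 17% were higher by the same test, so a lower level in epidermis was also the more common call in the table as a whole.

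The study profiled skin of adult rats and mice by SMART-seq2, which copies polyadenylated RNA into full-length cDNA, in 18 libraries. The 6 libraries used here were 3 of mouse wound dermis and 3 of mouse wound epidermis, both taken 1 day after the scab came off, a stage at which, per the series' design text, mice regrow follicles inside the wound. Both groups are therefore healing wounds, and no unwounded mouse skin was analysed here. The sources used here do not give strain, age in weeks, sex, wound size or any genotype or drug. They also do not say whether each library is a separate animal, so a p-value covers only the variation among these 6 libraries, which may be technical.

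In the resting follicle, stem cells sit in the bulge, a niche in the outer wall of the follicle, and in the hair germ just beneath it, while other stem cell pools occupy the isthmus and the junction with the sebaceous gland above. Cd34 marks mouse bulge cells, Lgr5 marks bulge and germ cells, and Lgr6 and Lrig1 mark pools higher in the follicle. Sox9, Lhx2, Nfatc1, Foxc1, Tcf7l1 and Tcf7l2 are transcription factors known to maintain bulge cells or hold them at rest. Several of the same genes are known from other cells of skin: CD34 protein is carried by capillary endothelium and by many dermal fibroblasts, Tcf7l2 is widely used by mesenchymal cells, Foxc1 acts in mesenchyme and vessels, and Nfatc1 in endothelium and in cells of the macrophage lineage. A whole-tissue TPM value does not say which cell type supplied the transcript, and in bulk tissue fewer cells of a type and less RNA per cell cannot be told apart.

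Among the markers are a pair of receptors, Lgr5 and Lgr6, and a pair of DNA-binding factors, Tcf7l1 and Tcf7l2, that descend from common ancestors, and reads from such relatives may be confused where their sequences are alike. The coding sequences of Tcf7l1 and Tcf7l2 were identical at 69.3% of aligned bases, with a longest identical run of 23 bases. Those of Lgr5 and Lgr6 were identical at 63.2%, with a longest identical run of 18 bases, and reads of 86 or 43 bases are stated in the labels' protocols. The most alike stretch of 60 coding bases in each pair is shown to make that difference visible, read 5′ to 3′ on the coding strand from the GENCODE vM21 transcripts on mm10, with capitals at the bases that differ within the pair.
Tcf7l1: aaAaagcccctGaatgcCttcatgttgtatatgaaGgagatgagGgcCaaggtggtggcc
Tcf7l2: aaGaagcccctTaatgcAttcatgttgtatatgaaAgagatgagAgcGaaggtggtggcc
Lgr5: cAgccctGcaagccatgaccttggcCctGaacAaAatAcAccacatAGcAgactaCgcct
Lgr6: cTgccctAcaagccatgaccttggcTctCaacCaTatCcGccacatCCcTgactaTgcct

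The Tcf7l1 stretch lies at chr6:72631266-72631325 on the minus strand, in a coding exon, and the Tcf7l2 stretch at chr19:55918934-55918993 on the plus strand. They differ at 6 of 60 bases. The Lgr5 stretch lies at chr10:115478415-115478474 and the Lgr6 stretch at chr1:135027080-135027139, both on the minus strand and both coding, and they differ at 12 of 60 bases. Over whole transcripts, 0% of the 43-base windows of Lgr6, Nfatc1, Tcf7l2 and Lhx2 occurred in a transcript of any other gene. The share was 0.0489% for Sox9, shared with Sox10, 0.19% for Foxc1, shared with Foxc2, and 0.784% for Lgr5. It was 1.52% for Tcf7l1, 1.82% for Lrig1 and 3.06% for Cd34. In these last 3 genes the shared bases include exons that overlap a gene on the other strand: Gm15401 at Tcf7l1, Slc25a26 at Lrig1 and Gm16897 at Cd34. Those overlapping genes had group means of at most 1.93 TPM, and the counting is not stated to use strand. In epidermis the mean of Gm15401, 0.813 TPM, exceeded that of Tcf7l1, 0.347 TPM. Windows of Cd34 were shared with 74 other genes and those of Lgr5 with 1875.

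The tissue labels were checked against marker genes of skin cells before the follicle markers were read. All 12 fibroblast genes, all 12 endothelial genes and all 8 macrophage genes were lower in epidermis by limma with Benjamini-Hochberg adjustment over all tested genes at 0.05, and 0 of each were higher, also at an unadjusted p under 0.05. Their median levels in epidermis were 0.143%, 1.22% and 1.04% of those in dermis. All 7 suprabasal keratinocyte genes and 5 of 7 basal ones were higher in epidermis, though the basal count was 2 without dermis replicate 1 and 1 without epidermis replicate 1, without epidermis replicate 3 or with no filter. Dermis replicate 2 stood apart: the median suprabasal gene reached 22.3% of its epidermis mean there, and 0.899% and 0.486% in dermis replicates 1 and 3. The median basal keratinocyte gene reached 44.8% in that library and 16.2% and 3.43% in the others, so dermis replicate 1 held basal keratinocyte transcripts as well. Krt14, a basal keratin, was at 1605, 2471 and 174 TPM in dermis replicates 1, 2 and 3 and at 5552 to 14970 TPM in epidermis. Of the other lists, 7 of 8 pericyte and smooth muscle genes, 2 of 6 T cell genes and 1 of 2 melanocyte genes were lower. So were 3 of 4 genes of Schwann cells, the cells that ensheath nerves, and 1 after quantile normalization. In these lists 0 genes were higher, also at an unadjusted p under 0.05, at which 3 T cell genes were lower. The 6 sebaceous genes were split into 3 lower and 3 higher. Under both other scalings 1 pericyte and smooth muscle gene was higher, and under quantile normalization 1 melanocyte gene. Fibroblast genes in the epidermis libraries had median levels of 0.03% to 0.29% of the dermis mean. TPM keeps no read number, so sequencing depth is unknown here.

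**Figure D1:**
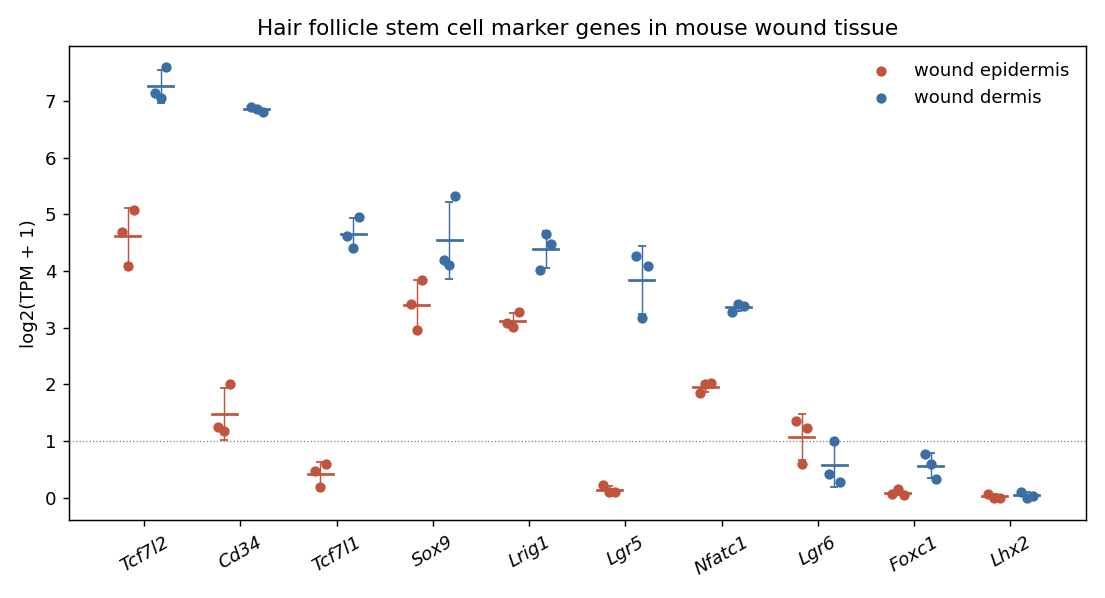
Level of each follicle marker as log2(TPM + 1) in 3 wound epidermis and 3 wound dermis libraries of mouse. Each point is a library, the bar is the mean and the whiskers are 1 SD, and the dotted line marks 1 TPM. In the 7 called markers every dermis point lies above every epidermis point, and Lgr6 alone among the tested markers overlaps. The share of all tested genes that separate in this way is not given here.

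The plot of levels by library shows a wide range among the markers. In dermis the order of mean levels was Tcf7l2 at 155 TPM, Cd34 at 115 TPM, then Tcf7l1, Sox9, Lrig1, Lgr5 and Nfatc1 from 24.5 down to 9.30 TPM, then Lgr6 and Foxc1 at 0.523 and 0.493 TPM, and Lhx2 at 0.0333 TPM. Dermis libraries of Tcf7l2 and Cd34 did not overlap, nor did those of Cd34 and Tcf7l1 or of Nfatc1 and Lgr6. Each neighbouring pair between Tcf7l1 and Nfatc1 in that order did overlap. In epidermis Tcf7l2 was again first at 24.6 TPM and separate from the next, Sox9 at 9.93 TPM, which overlapped Lrig1 at 7.75 TPM. From Nfatc1 at 2.89 TPM down, every neighbouring pair overlapped. Among the genes tested, the dermis level of Cd34 exceeded that of 92.0% and its epidermis level that of 26.2%.

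Among the cell-surface markers, Cd34, Lgr5 and Lrig1 fell in wound epidermis, by log2 changes of -5.38, -3.70 and -1.26, and Lgr6 was not called. The same test gave the 4 transcription factors Sox9, Nfatc1, Tcf7l1 and Tcf7l2 as lower, from -1.14 for Sox9 to -4.24 for Tcf7l1. Fold changes are epidermis minus dermis on the log2(TPM + 1) scale, which understates the change of genes near or under 1 TPM. The median log2 change was -2.02 for the 8 tested markers and -0.42 for all 15982 tested genes. The first of these medians includes Lgr5 and Tcf7l1, which passed the filter through dermis alone. That median of all genes depends on scaling, since it was -0.03 with median-of-ratios scaling and 0.08 with quantile normalization, so small changes are to be read against that shift. By the same scalings, 47.2% and 52.8% of the called genes were higher, against 30.2% as deposited.

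Cd34 encodes a sialomucin of the cell surface and lies on chromosome 1 from 194938819 to 194961279, plus strand (ENSMUSG00000016494, mm10). Its level was 119, 114 and 111 TPM in dermis replicates 1, 2 and 3 and 1.38, 1.26 and 3.02 TPM in the epidermis replicates. All dermis libraries were high and close together, all epidermis libraries were low, and the groups did not overlap. The means were 115 ± 3.82 TPM in dermis and 1.89 ± 0.983 TPM in epidermis (SD, n = 3 each), and limma gave a log2 change of -5.38 ± 0.26 (SE) with an adjusted p of 1.3e-05. The 95% interval was -5.99 to -4.76. On this scale Cd34 had the largest change among the tested markers, but with a pseudocount of 0.1 TPM Lgr5 was at -6.05 and Cd34 at -5.96, and the ratio of dermis to epidermis means was 133 for Lgr5, 70.7 for Tcf7l1 and 60.8 for Cd34.

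What little Cd34 was present in epidermis came to 1.64% of the dermis level, and to 1.2%, 1.10% and 2.63% in the single libraries. The median endothelial gene was at 0.870%, 0.336% and 1.94% of its dermis mean in the same libraries, and the median fibroblast gene at 0.103%, 0.030% and 0.290%. Epidermis replicate 3 was the highest of the epidermis libraries for Cd34 and for both of these medians. The median macrophage gene, at 1.32%, 0.369% and 1.16%, was highest in epidermis replicate 1 instead. Cldn5, a tight junction protein of endothelium, was the lowest of the 12 endothelial genes, at 0, 0 and 0.27 TPM in epidermis against 66.9 to 87.4 TPM in dermis. Pecam1, an adhesion protein of endothelium, and Flt1, a VEGF receptor, were the highest, at 4.58% and 6.56% of their dermis levels, above the 1.64% of Cd34. Pdgfra, a receptor that defines fibroblasts, was at 0.05 to 0.26 TPM against 22.6 to 30.8 TPM. The part of such cells in the Cd34 value was not tested.

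Lgr5, a receptor for R-spondins that strengthens Wnt signalling, lies on chromosome 10 from 115450311 to 115587780, minus strand (ENSMUSG00000020140). It was at 18.4, 7.97 and 16.1 TPM in the dermis replicates and at 0.17, 0.07 and 0.08 TPM in the epidermis replicates. Every dermis library exceeded every epidermis library by a wide margin, and dermis replicate 2, the library with the highest medians of both keratinocyte lists, was the lowest of its group. The means were 14.1 ± 5.46 and 0.107 ± 0.0551 TPM, and limma gave -3.70 ± 0.31 (SE) with an adjusted p of 9.6e-05. In epidermis Lgr5 was at 0.754% of its dermis level, the smallest share among the tested markers.

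Lgr6, its close relative and a marker of stem cells above the bulge, lies on chromosome 1 from 134983301 to 135105276, minus strand (ENSMUSG00000042793). Levels were 0.34, 1.01 and 0.22 TPM in dermis and 1.56, 0.52 and 1.36 TPM in epidermis. The groups overlapped, because epidermis replicate 2 lay below dermis replicate 2. Lgr6 reached 1 TPM in exactly 3 libraries, the least that the filter allows, and limma gave 0.49 ± 0.28 (SE) with an adjusted p of 0.173 and a 95% interval of -0.17 to 1.16. After quantile normalization the change was 1.17 with an adjusted p of 0.0026, and without dermis replicate 2 it was 0.71 with an adjusted p of 0.0596. The call for Lgr6 thus differed with the scaling.

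Within every dermis library Lgr5 exceeded Lgr6, and within every epidermis library Lgr6 exceeded Lgr5. The log2 ratio of Lgr6 to Lgr5, each as TPM + 1, was -3.85, -2.16 and -3.81 in dermis and 1.13, 0.51 and 1.13 in epidermis. All 3 dermis ratios lay below 0 and all 3 epidermis ratios above it. The mean ratio differed by 4.19, with an exact two-sided permutation p of 0.1, the smallest that 3 against 3 libraries can give. That difference equals the log2 change of Lgr6, 0.49 and not called, less that of Lgr5, -3.70. With a pseudocount of 0.1 TPM the difference was 7.14, so its size depends on the pseudocount.

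Of 10 tested genes for R-spondins, Lgr receptors and the ligases and co-receptors they act on, Lgr5 and Lgr6 included, 6 were lower in epidermis and 3 were higher. Rspo1, Rspo3 and Rspo4, the secreted ligands, fell by 2.21, 1.95 and 1.78 on the log2 scale, and Rspo2 was listed at 0 in all 6 libraries. Lgr4, the broadly expressed relative of both, fell from 98.1 ± 22.2 to 27.9 ± 13.6 TPM (SD, n = 3 each) and was the most abundant of the 3 receptors in both tissues. Rnf43 and Znrf3, membrane ligases that remove Wnt receptors, were higher by 1.65 and 0.95, and Lrp5, a Wnt co-receptor, by 1.11. Its relative Lrp6 was lower, with means of 12.4 ± 1.81 TPM in dermis against 6.63 ± 0.775 TPM in epidermis (SD, n = 3 each), a log2 change of -0.81 that was not called at -0.38 with median-of-ratios scaling or at -0.25 with quantile normalization. The Znrf3 call was lost with adjusted p of 0.0909 to 0.129 without dermis replicate 1, dermis replicate 3, epidermis replicate 1 or epidermis replicate 3.

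Lrig1, a membrane protein that restrains ErbB receptors, lies on chromosome 6 from 94604529 to 94700158, minus strand (ENSMUSG00000030029). It was at 15.2, 24.2 and 21.2 TPM in the dermis replicates and at 7.51, 7.09 and 8.65 TPM in the epidermis replicates. The dermis libraries were all above the epidermis libraries, and the epidermis libraries were close together. Means were 20.2 ± 4.58 and 7.75 ± 0.807 TPM, and limma gave -1.26 ± 0.23 (SE) with an adjusted p of 0.0033. Epidermis held 38.4% of the dermis level, and there Lrig1 exceeded 52.5% of all tested genes.

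Among receptors that Lrig1 is known to restrain, 3 were higher in epidermis and Met was not called. Erbb3, Erbb2 and Egfr, receptors for growth factors of the EGF and neuregulin families, were the 3 that were higher, by 2.19, 1.41 and 0.76 on the log2 scale, each by limma. Erbb3 went from 3.63 ± 2.52 TPM in dermis to 18.0 ± 1.62 TPM in epidermis. Met, the receptor for hepatocyte growth factor, was at 1.66 to 2.69 TPM in dermis and 1.38 to 2.75 TPM in epidermis, and its change of -0.03 turned to 0.27 with median-of-ratios scaling and to a called 0.77 with quantile normalization. It also turned to 0.11 without dermis replicate 1 and to 0.13 without epidermis replicate 2. Of 7 genes in the LRIG and ErbB list, 3 were higher and 2 lower, the latter being Lrig1 and Lrig3. Lrig3 changed by -0.97, a call that was lost at -0.54 with median-of-ratios scaling and at -0.42 with quantile normalization. Lrig2, at -0.14 and not called, turned to 0.25 and 0.56 under those 2 scalings.

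**Figure D2:**
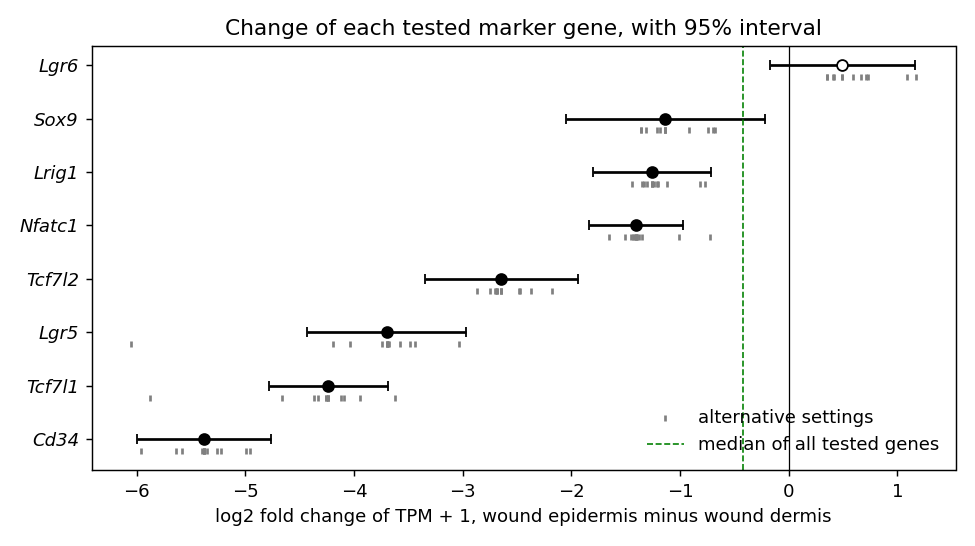
Log2 fold change of TPM + 1, wound epidermis minus wound dermis, for the 8 tested follicle markers, with the 95% interval from limma. Filled points are called and the open point is not, grey ticks are the values under alternative settings and the dashed line is the median of all tested genes at -0.42: the intervals of Cd34, Tcf7l1, Lgr5, Tcf7l2, Nfatc1 and Lrig1 lie to the left of that line, and that of Sox9 crosses it.

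Of the transcription factors, Tcf7l1 had the largest change. It encodes a TCF protein that mostly represses Wnt targets and lies on chromosome 6 from 72626378 to 72789254, minus strand (ENSMUSG00000055799). Its levels were 23.6, 20.1 and 29.9 TPM in dermis and 0.38, 0.14 and 0.52 TPM in epidermis. None of the epidermis libraries reached 1 TPM and none of the dermis libraries fell under 20 TPM. The means were 24.5 ± 4.98 and 0.347 ± 0.192 TPM, with a log2 change of -4.24 ± 0.23 (SE) and an adjusted p of 1.8e-05 by limma.

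Tcf7l2, a TCF that can activate Wnt targets with β-catenin, lies on chromosome 19 from 55741820 to 55933654, plus strand (ENSMUSG00000024985). It was at 140, 132 and 192 TPM in the dermis replicates and at 24.9, 16.0 and 32.8 TPM in the epidermis replicates. The groups did not overlap, and replicate 3 was highest in each of them. Means were 155 ± 32.5 and 24.6 ± 8.43 TPM, and limma gave -2.64 ± 0.30 (SE) with an adjusted p of 0.00039. Even so, Tcf7l2 was the most abundant marker in epidermis, above 74.1% of all tested genes there.

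The ratio of the 2 factors was also compared within each library. The log2 ratio of Tcf7l1 to Tcf7l2, each as TPM + 1, was -2.52, -2.66 and -2.64 in dermis and -4.23, -3.90 and -4.48 in epidermis. The dermis ratios were nearly equal and all epidermis ratios were lower. The difference was -1.59, with an exact two-sided permutation p of 0.1, again the smallest that 3 against 3 allows. It equals the log2 change of Tcf7l1, -4.24, less that of Tcf7l2, -2.64. With a pseudocount of 0.1 TPM the difference was -3.18, so its size depends on the pseudocount.

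Of 13 tested genes for TCF factors and their partners, both markers included, 7 were lower, 1 was higher and 5 were not called, though after quantile normalization 4 were higher and 5 lower. Axin2, a scaffold protein and a common target of Wnt signalling, went from 19.7 ± 3.37 to 4.61 ± 0.916 TPM (SD, n = 3 each), a log2 change of -1.88. Tle2, a corepressor, and Bcl9, a coactivator of β-catenin, changed by -2.17 and -1.37. Tle3, another corepressor, was higher by 0.85. The other TCF family members were low in both tissues: Tcf7 changed by -1.21, and Lef1 was between 0.93 and 2.49 TPM and not called at -0.33, a sign that turned to 0.46 after quantile normalization. The Tcf7 call was lost after quantile normalization at -0.46, and without epidermis replicate 1 or epidermis replicate 2 at adjusted p of 0.0595 and 0.0548.

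Sox9, an HMG-box factor needed to form and keep the bulge, lies on chromosome 11 from 112782224 to 112787760, plus strand (ENSMUSG00000000567). Its levels were 17.4, 16.2 and 39.1 TPM in dermis and 9.64, 6.79 and 13.4 TPM in epidermis. The groups did not overlap, but the highest epidermis library came near the lowest dermis library, and dermis replicate 3 was more than 20 TPM above the other two. Means were 24.2 ± 12.9 and 9.93 ± 3.30 TPM, and limma gave -1.14 ± 0.39 (SE), a 95% interval of -2.05 to -0.22 and an adjusted p of 0.041.

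Sox9 was the only one of the 7 whose call depended on the settings tried. It was lost without dermis replicate 1 at -1.31, without dermis replicate 3 at -0.75, without epidermis replicate 1 at -1.14 and without epidermis replicate 2 at -0.91, with adjusted p of 0.057 to 0.118, and with no filter at an adjusted p of 0.080. Median-of-ratios scaling gave -0.70 and quantile normalization -0.68, and neither was called. Sox10, a related factor on the list of Schwann cell markers used here, was at 0.26, 2.81 and 8.00 TPM in the dermis replicates. It was listed at 0 in every epidermis library. Dermis replicate 3 was the highest for Sox10 as for Sox9, and the part of Schwann cells in the Sox9 value was not tested.

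**Figure D3:**
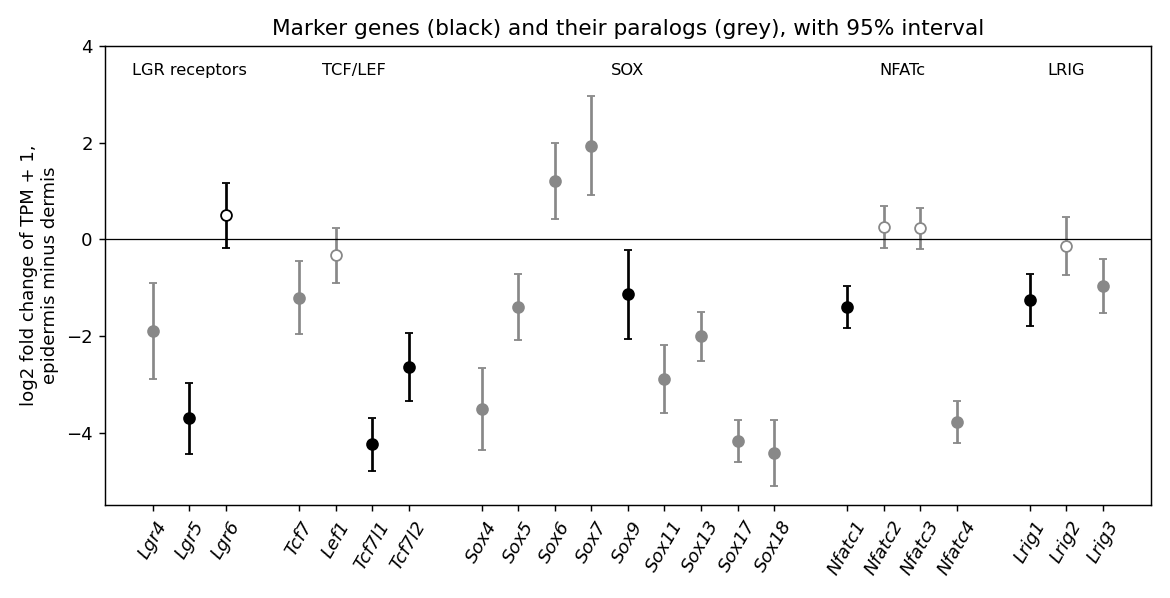
Log2 fold change of TPM + 1, wound epidermis minus wound dermis, for follicle markers in black and tested members of the same gene families in grey, with 95% intervals from limma. Filled points are called and open points are not: within the SOX family Sox17 and Sox18 lie lowest at -4.17 and -4.41, while Sox6 and Sox7 lie above 0, and within the NFATc family Nfatc2 and Nfatc3 are not called.

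Of 9 tested SOX genes, Sox9 included, 7 were lower and 2 higher, and in the plot of gene families Sox9 lies nearest to 0 among them. Sox17 and Sox18, factors of endothelial cells, fell from 18.5 ± 1.85 to 0.0833 ± 0.0321 TPM and from 22 ± 9.10 to 0.0300 ± 0.0265 TPM (SD, n = 3 each). Sox4 and Sox11, factors of mesenchymal and progenitor cells, changed by -3.51 and -2.89, Sox13 by -2.01 and Sox5 by -1.41, the last not called after quantile normalization at -0.66. Sox7, related to Sox17 and Sox18, went against them: it rose from 21.4 ± 13.8 to 74.5 ± 7.24 TPM, a log2 change of 1.94. Sox6 was higher by 1.2, a call lost at adjusted p of 0.0536 to 0.0664 without dermis replicate 1, dermis replicate 3, epidermis replicate 1 or epidermis replicate 3. Sox7 exceeded Sox9 in epidermis in all 3 libraries, with a lowest value of 67.2 TPM against a highest of 13.4 TPM.

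Nfatc1, a factor held in the cytoplasm until calcineurin releases it, lies on chromosome 18 from 80606205 to 80713071, minus strand (ENSMUSG00000033016). It was at 8.71, 9.72 and 9.48 TPM in the dermis replicates and at 2.62, 3 and 3.06 TPM in the epidermis replicates. The libraries of each group were close together and the groups were far apart. Means were 9.30 ± 0.528 and 2.89 ± 0.239 TPM, and limma gave -1.40 ± 0.18 (SE) with an adjusted p of 0.00075. Epidermis held 31.1% of the dermis level.

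Of 10 tested genes for NFAT factors, calcineurin and its regulators, 4 were lower, 6 were not called and 0 were higher by limma. At an unadjusted p under 0.05, 5 were lower and 0 were higher. Under median-of-ratios scaling 3 were called higher, and 3 under quantile normalization. Nfatc4 fell from 13.3 ± 1.38 to 0.0433 ± 0.0321 TPM (SD, n = 3 each). Rcan2, a calcineurin regulator, changed by -2.84 and Ppp3cb, a catalytic subunit of calcineurin, by -1.32. Nfatc2 had means of 2.53 and 3.22 TPM in dermis and epidermis and Nfatc3 of 8.59 and 10.2 TPM, not called at 0.26 and 0.23. Both were called higher under median-of-ratios scaling, at 0.61 and 0.65, and under quantile normalization, at 1.02 and 0.79.

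The remaining factors, Lhx2 and Foxc1, did not pass the filter. Lhx2, a LIM-homeodomain factor of bulge cells on chromosome 2 from 38339281 to 38369733, plus strand (ENSMUSG00000000247), was at 0.08, 0 and 0.02 TPM in dermis and 0.05, 0 and 0 TPM in epidermis. No library of either tissue came near 1 TPM. Foxc1, a forkhead factor of resting bulge cells on chromosome 13 from 31806633 to 31812476, plus strand (ENSMUSG00000050295), was at 0.70, 0.52 and 0.26 TPM in dermis and 0.05, 0.11 and 0.04 TPM in epidermis. All Foxc1 libraries were low, and those of dermis lay above those of epidermis. With no filter, limma gave -0.48 ± 0.12 (SE) for Foxc1 with an adjusted p of 0.030.

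Of 10 forkhead genes, Foxc1 included, 6 were below the filter, 2 were lower and 2 higher. Foxc2, its closest relative, was listed at 0 in every epidermis library and reached at most 0.72 TPM in dermis. Foxf1 and Foxp1 were lower in epidermis, by log2 changes of -1.74 and -1.21. Foxn1, a factor of differentiating keratinocytes, rose from 1.06 ± 0.758 to 7.38 ± 2.39 TPM (SD, n = 3 each), and Foxq1, which acts in the hair shaft, was higher by 1.71, with an adjusted p of 0.0521 without dermis replicate 1.

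Other genes used to mark the bulge and hair germ were described alongside. Of 22 listed, 21 were found by symbol and 16 passed the filter: 8 were lower in epidermis, 4 were higher and 4 were not called. Postn, Dkk3, Tnc and Runx1 were lower, with Postn, a matrix protein that fibroblasts also secrete, averaging 1899 ± 649 TPM across dermis but 12.2 ± 8.48 TPM across epidermis (SD, n = 3 each). The genes that were higher were Krt15, Hopx, Vdr and Tbx1. Tbx1, a T-box factor, was at 0.33, 1.78 and 1.31 TPM in dermis and at 5.56, 5.81 and 8.86 TPM in epidermis, with no overlap and a log2 change of 1.90. Krt19, a keratin of mouse bulge cells, was at most 0.15 TPM in any library, and Gli1 reached 1.03 TPM in a single dermis library.

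Krt15, a keratin of bulge and basal cells, was at 2.81, 187 and 9.59 TPM in the dermis replicates and at 754, 224 and 459 TPM in the epidermis replicates. Dermis replicate 2 came close to the lowest epidermis library, and the limma change of 4.44 ± 1.33 (SE) had an adjusted p of 0.024. It was called at 6.07 without that library. The call was lost at adjusted p of 0.0585 to 0.0801 when dermis replicate 1, dermis replicate 3, epidermis replicate 1 or epidermis replicate 3 was left out instead.

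Of 7 tested genes of the upper follicle, Lrig1 and Lgr6 included, 3 were higher in epidermis, 3 were not called and 1, Lrig1, was lower. Cst6, a protease inhibitor of cornifying cells, rose from 26.9 ± 30.4 to 274 ± 21.9 TPM and Atp6v1c2, a subunit of a proton pump, from 4.58 ± 7.29 to 79.4 ± 23.1 TPM (SD, n = 3 each). Plet1, a surface protein of the follicle junction, was higher by 2.03 at an adjusted p of 0.049. That call was lost at adjusted p of 0.0747 to 0.148 in each omission of a single library except that of dermis replicate 2. In all of these, dermis replicate 2 was the highest dermis library, at 61.7 TPM for Cst6, 13 TPM for Atp6v1c2 and 10.0 TPM for Plet1.

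**Figure D4:**
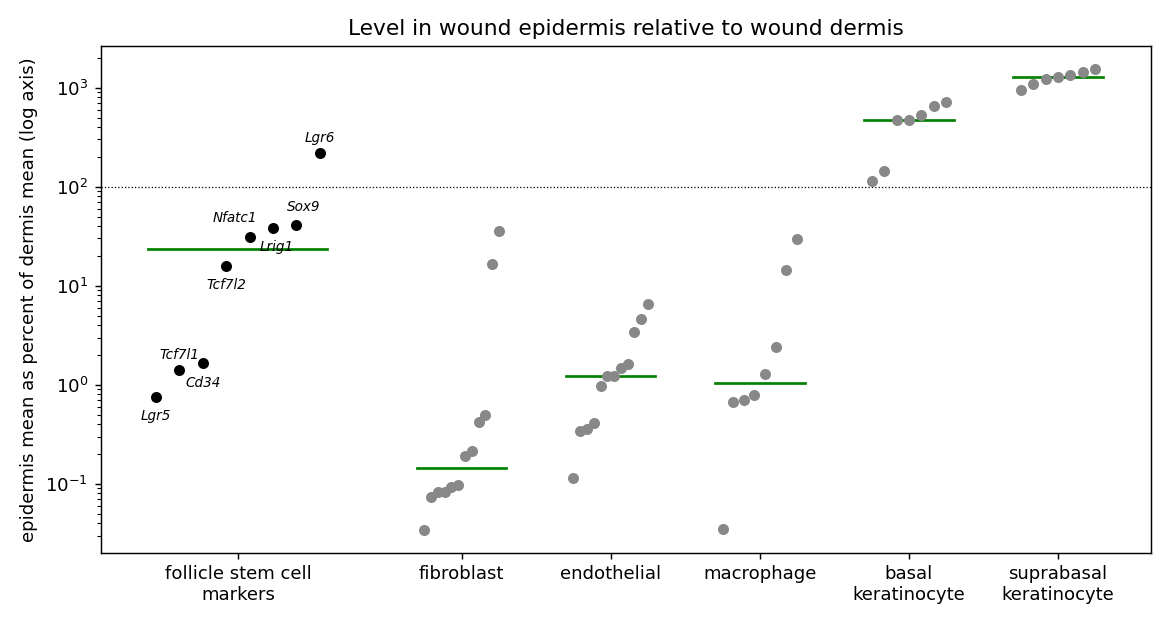
Mean level in wound epidermis as a percent of the mean level in wound dermis, on a log axis, for the 8 tested follicle markers in black and for the tested genes of 5 skin cell marker lists in grey, with green bars at the medians. Lgr5, Tcf7l1 and Cd34 lie between 0.754% and 1.64%, within the ranges of the endothelial, fibroblast and macrophage genes. Tcf7l2, Nfatc1, Lrig1 and Sox9 lie between 15.9% and 41.0%, and Lgr6 lies above the dotted line at equal levels.

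The 8 tested markers were placed beside the marker lists of skin cells. Lgr5, Tcf7l1 and Cd34, at 0.754%, 1.41% and 1.64% of the dermis level, lay within the range of the endothelial genes, 0.113% to 6.56%. The same markers lay within the ranges of the fibroblast genes, 0.0345% to 35.6%, and the macrophage genes, 0.0349% to 29.5%. They also lay within that of the pericyte and smooth muscle genes, 0.105% to 132%. Tcf7l2 at 15.9%, Nfatc1 at 31.1%, Lrig1 at 38.4% and Sox9 at 41.0% lay above every endothelial gene and below every gene of the 2 keratinocyte lists. Some genes of the fibroblast and macrophage lists lay in that same range or close to it: Thy1 was at 16.7% and Fbln1 at 35.6%, and Csf1r at 14.3% and Cd68 at 29.5%. Lgr6, with overlapping libraries, stood at 219%, inside the range of the basal keratinocyte genes, 115% to 720%.

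Profiles across the 6 libraries were also compared as centred log2(TPM + 1) values, by the root mean square difference between 2 genes, over all tested genes with a named symbol. The nearest to Cd34 were Nrp1, Plvap and Col4a2, at 0.115, 0.143 and 0.161. Nearest to Lgr5 were Fat4, P3h3 and Lamc1, at 0.133 to 0.159, and nearest to Tcf7l1 were Rflna, Gdf11 and Arxes2, at 0.066 to 0.117. All 9 of these genes had lower means in epidermis than in dermis, which follows from picking them for profiles near those of these markers.

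The markers with smaller changes had other neighbours. Those of Tcf7l2 were Gga2, Colgalt1 and Lrpap1 at 0.0637 to 0.0757, and those of Nfatc1 were Chd9, Zeb2os and Ssh2 at 0.0621 to 0.072. Lrig1 was nearest to Zfp955b, Lipo3 and Mgat4c at 0.0591 to 0.0862, and Sox9 to Tgif2, Ost4 and Mydgf at 0.109 to 0.153. For Lgr6 the nearest were Fnbp1, Nudt13 and Kdm1b at 0.0244 to 0.0952. Plvap, a protein of fenestrated vessel walls, is the only one of all these neighbours that is on the endothelial list.

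Measured against whole lists instead, Cd34 lay at 0.382 from the median endothelial profile, 0.441 from the macrophage profile and 1.81 from the fibroblast profile. Tcf7l1 lay at 0.376 from the macrophage and 0.379 from the endothelial profile, which do not separate. Lgr5, Tcf7l2, Nfatc1, Lrig1 and Sox9 were at 0.616, 1.11, 1.68, 1.78 and 1.88 from the endothelial profile and at 0.656, 1.17, 1.79, 1.87 and 1.91 from the macrophage profile, so the 2 lists could hardly be told apart for them either. Lgr6 alone was nearest to basal keratinocytes, at 1.35. With 2 tissues and 6 libraries these distances mostly follow the size of the change between the tissues, and they do not show in which cells a gene was expressed.

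Because dermis replicate 2 had the highest medians of both keratinocyte lists among the dermis libraries, the markers were also read without it. The log2 changes were then -5.38 for Cd34, -4.04 for Lgr5, -4.36 for Tcf7l1, -2.75 for Tcf7l2, -1.38 for Nfatc1, -1.35 for Sox9 and -1.12 for Lrig1. The same 7 markers were called lower by limma and Lgr6 was not called. The ratio of Lgr6 to Lgr5 then differed by 4.75 and that of Tcf7l1 to Tcf7l2 by -1.62.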

How the data were processed

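The authors deposited 1 table of TPM values per gene for the mouse libraries. Bowtie 1.0.0, RSEM 1.2.31 and the build mm10 are named per the submitters' processing notes; annotation and settings: not given in the sources used here. TPM is a share of a library, so abundant transcripts of 1 tissue lower all its other values, and depth is unknown. Ensembl identifiers were paired with symbols for 49289 of 49548 genes. All columns matched a labelled sample. The rat table was not used, because its identifiers could not be paired with symbols.

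Values were tested as log2(TPM + 1), pseudocount 1 TPM, with limma 3.58.1 (trend) in R 4.3.3 over the 15982 genes that reached 1 TPM in 3 or more of the 6 libraries, with Benjamini-Hochberg adjustment at 0.05. The script was run on simulated data with 200 genes changed, fewer than the 8996 called here, and the outcome is not reported here. That run does not cover the shift between scalings seen in the real values. Ratios of paralogs were compared by exact permutation in scipy 1.17.1. Coordinates, overlaps and sequences came from GENCODE vM21 on mm10. The markers and gene lists were chosen with earlier results of these data known. The text names all 10 markers, the 3 nearest profiles of each tested one, and from each list up to 4 genes with the smallest adjusted p, genes that moved against their list, and paralogs; Krt19, Gli1, Rspo2, Sox10, Cldn5, Pdgfra, Pecam1, Flt1, Met, Lrp6, Krt14, Thy1, Fbln1, Csf1r and Cd68 were named after their values were seen. Some listed genes are not reported here. Alternatives changed the pseudocount, filter, scaling, replicate block and libraries.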

Additional observations from a re-analysis of the deposited data

How the results depend on the processing

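Cd34, Lgr5, Tcf7l1, Tcf7l2, Nfatc1 and Lrig1 stayed lower in wound epidermis, past the threshold, in all 13 alternatives: a pseudocount of 0.1 TPM, no filter or a filter of 5 TPM, 2 other scalings, TPM without the 50 most abundant genes, the replicate block, and each library left out. Sox9 kept its direction and lost its call in 7 of 13. With no filter, which tests more genes, Sox9, Krt15, Krt14, Znrf3, Sox6 and Plet1 were not called. The count of markers called higher was 0, and 1 (Lgr6) after quantile normalization; without single libraries it stayed at 0. The count called lower was 6 to 7 without single libraries. Both paralog ratios kept their direction in all 10 alternatives.

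Whether replicate numbers pair the libraries could not be settled from correlations over so few libraries. Deviations of same-numbered epidermis and dermis libraries correlated at -0.14, 0.09 and 0.19, and not every library correlated best with its own number. With the replicate block 8404 genes were called, against 8996, and 7 markers were still called lower and 0 higher.

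The alternatives for the other named genes and lists were chosen after seeing the data. Of 749 values for other named genes, 701 kept direction and call, 36 lost their call, 4 gained one and 8 changed sign: Lef1 to 0.46 after quantile normalization, Met to 0.27 and 0.77 under median-of-ratios and quantile scaling and from -0.20 to 0.13 over the omissions of single libraries (0.11 without dermis replicate 1), and Lrig2 to 0.25 and 0.56 under median-of-ratios and quantile scaling and from -0.26 to 0.087 over the omissions of single libraries. The cause was not tested. Of 468 list counts, 27 moved by over 1.5 times. Depth is unknown in TPM, so Lhx2, Foxc1 and the epidermis levels of Lgr5 and Tcf7l1, all under 1 TPM, carry no counting interval.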
